A study of Mus musculus with 4 samples.

Results

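The mitochondrial ribosomal protein genes, whose products build the ribosome inside mitochondria, were followed in mouse kidney ureteric buds after angiotensin II (AngII). The members were all genes on the array with a symbol of the form Mrpl or Mrps and a number, matched through the accession of the probe. This gave 78 genes, 49 with a large subunit name (Mrpl) and 29 with a small subunit name (Mrps), of 17305 named genes. Intact buds, the epithelial outgrowths that branch into the collecting duct system, were embedded in a gel, and the medium of both groups held serum (10%) and the growth factors GDNF and HGF, each at 100 ng/ml. AngII was given at 1e-05 M for 6 h, against media alone. The labels give no strain, age or genotype and call the 2 numbered RNA pairs biological replicates, with no animal or culture named for either. A dye swap of each pair made 4 two-colour arrays, all on 1 slide.

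Mitochondria translate the few proteins that their own DNA encodes, all of them parts of the respiratory chain and ATP synthase, on a ribosome of their own. Its RNA comes from mitochondrial DNA, but each of its proteins is encoded in the nucleus, made in the cytosol and imported. The large subunit forms the peptide bond and the small subunit reads the message, and both hold proteins with bacterial counterparts and proteins that arose in mitochondria.

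Between 19024 and 21919 of 41174 probes were well above background in a given RNA on a given array, and 15003 features entered the test. The ratios of the numbered replicates correlated at r = 0.98 across features, and 0 features differed between them in limma (767 at an unadjusted p under 0.05), so they count as 1 independent pair of RNAs. The p-values below therefore measure the spread between hybridisations, not between animals or cultures. Of 13 tested ureteric bud markers 6 were higher and 5 lower under AngII, Krt8 and Krt18 were the brightest of them, and Ret was not well above background. Of the erythroid markers, 7 of 7 tested were higher, by 0.43 to 2.78 in log2 ratio. Among 4 leukocyte markers tested, all on dim probes, Ptprc (0.64), Cd74 (0.57) and Tyrobp (0.33) were higher and Csf1r (-0.13) was lower. Nephron progenitor markers were lower in 4 of 5 (median -0.37), endothelium markers lower in 3 of 4 (median -0.11), and stroma markers higher in 3 and lower in 1 of 6. Over all features 39.0% were higher and 38.1% lower by the same threshold, an adjusted p under 0.05 in limma. The part of these cell types in the results below was not tested. In bulk RNA, more or fewer cells of a type cannot be told apart from more or less RNA per cell.

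Mitochondrial ribosomal protein genes were mostly a little higher under AngII. All 78 were well above background in both RNAs on all 4 arrays, so the filter on dim probes removed none. Of these, 49 rose, 14 fell and 15 did not pass at an adjusted p under 0.05 in limma. Across all features 77.1% passed, 39.0% higher and 38.1% lower, against 62.8% of members higher and 17.9% lower. The median log2 ratio of AngII over media was 0.15, a fold of 1.11, against 0.00 over all features. The changes were small, and only 1 member, Mrps6, differed 1.5-fold or more in either direction, against 10.9% of all features. On all 4 arrays 34 members were positive and 10 negative (43.6% and 12.8%, against 30.9% and 28.1% of all features). Those that passed with 1 sign throughout were 42 members (53.8%), a share close to the 57.6% of all features. With the replicate block, which leaves the dye difference in the error, 15 members passed as higher and 2 as lower (19.2% and 2.56%, against 16.3% and 14.6% of all features).

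**Figure D1:**
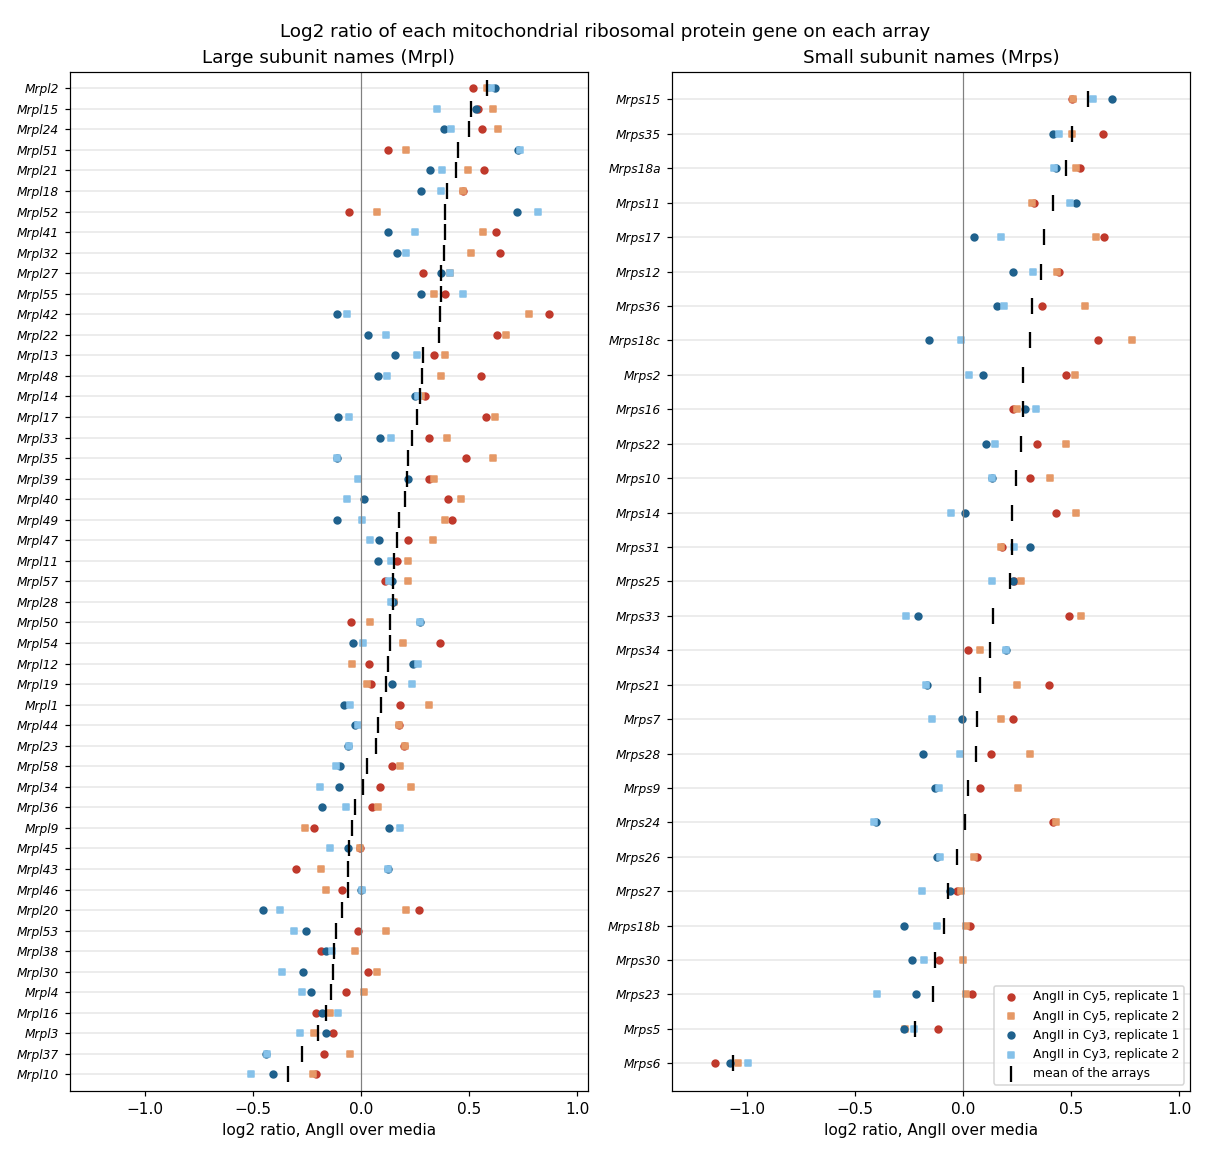
Log2 ratio of AngII over media (x axis) for each of the 78 genes (y axis), on 4 arrays (points) with their mean (bar), large subunit names on the left and small on the right. The other means lie between -0.34 and 0.58, and Mrps6 stands apart at -1.07.

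Mrps6, which encodes the small subunit protein related to bacterial S6, fell by 1.07 on the log2 scale (SE 0.035), or 2.09-fold. Its normalised log2 intensity in media was 14.81, 14.56, 13.98 and 14.42 on the 4 arrays, and in AngII RNA 13.66, 13.52, 12.90 and 13.43. The ratios were -1.15 and -1.04 with AngII in Cy5 and -1.08 and -0.996 with AngII in Cy3 (limma adjusted p = 2.26e-17). The intensities of both RNAs did not overlap, and the ratios of both dye orientations lay close together. A second Mrps6 probe gave a mean of -1.09. Of 15003 features 115 were as low or lower. Among members the next lowest value was -0.34, for Mrpl10. Mrps6 kept its call and its direction in each of the 12 alternative settings, at log2 ratios from -1.11 to -0.97.

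Mrps6 shares its start region with Slc5a3, a gene for the sodium-dependent inositol transporter that lies within its span, the annotated starts being 14 bases apart. Slc5a3 fell by 0.12 (limma adjusted p = 0.00335) on a dim probe whose mean log2 intensity was 6.51, against 13.91 for Mrps6. Whether it moved less than Mrps6 was not tested.

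The promoter stretches below are those of the 2 highest and 2 lowest members that kept 1 sign on all 4 arrays, with Mrps18a added for its ETS letters. They are the 200 bases before the annotated start, 5′ to 3′ on the strand of the gene, from RefSeq on GRCm38.p6. Capitals mark letters of a searched motif. Mrps6 lies at chr16:92058136-92058335 (plus strand), Mrpl10 at chr11:97041382-97041581 (plus strand), Mrpl2 at chr17:46646021-46646220 (plus strand), Mrps15 at chr4:126046728-126046927 (plus strand) and Mrps18a at chr17:46110804-46111003 (plus strand).
Mrps6: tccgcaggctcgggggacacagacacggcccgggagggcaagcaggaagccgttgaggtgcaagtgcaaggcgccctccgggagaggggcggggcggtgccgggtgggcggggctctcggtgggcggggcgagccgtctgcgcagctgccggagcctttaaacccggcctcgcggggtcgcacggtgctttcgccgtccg
Mrpl10: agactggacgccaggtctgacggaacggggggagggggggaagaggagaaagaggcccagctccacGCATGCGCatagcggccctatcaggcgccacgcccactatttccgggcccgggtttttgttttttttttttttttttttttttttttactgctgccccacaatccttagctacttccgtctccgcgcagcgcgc
Mrpl2: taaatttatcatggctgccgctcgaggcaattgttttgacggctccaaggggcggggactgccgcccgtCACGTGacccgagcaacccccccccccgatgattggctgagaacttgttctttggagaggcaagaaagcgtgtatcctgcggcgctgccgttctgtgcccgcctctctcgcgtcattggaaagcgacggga
Mrps15: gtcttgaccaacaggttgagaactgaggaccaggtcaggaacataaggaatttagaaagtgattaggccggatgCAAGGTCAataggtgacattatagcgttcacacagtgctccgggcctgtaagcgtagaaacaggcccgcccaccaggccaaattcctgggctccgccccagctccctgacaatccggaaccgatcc
Mrps18a: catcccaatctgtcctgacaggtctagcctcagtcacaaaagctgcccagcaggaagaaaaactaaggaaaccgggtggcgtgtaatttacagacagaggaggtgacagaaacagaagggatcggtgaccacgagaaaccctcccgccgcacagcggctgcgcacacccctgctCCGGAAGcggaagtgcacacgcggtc

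The capitals are the NRF1 letters GCATGCGC in Mrpl10, the E-box CACGTG in Mrpl2, the ERR letters CAAGGTCA in Mrps15 and the ETS letters CCGGAAG in Mrps18a. The Mrps6 stretch held none of the letters searched. NRF1, the ETS factor GABP, YY1 and ERR are regulators known to bind promoters of nuclear genes for mitochondrial proteins. Promoters of 300 bases, 250 before and 50 after the start, were found for 69 of 78 members, and letters were sought on both strands. The ETS letters were in 36.2% of member promoters, 17.7% of promoters of genes tested here and 9.12% of all 27025. The NRF1 letters were in 11.6%, 5.27% and 2.80%, the YY1 letters AAGATGGC in 17.4%, 4.62% and 2.88%, and ERR in 2.90%, 1.03% and 1.53%. The E-box was in 7.25% of member promoters, 10.1% of those of tested genes and 7.24% of all. Other lists held these letters too: cytosolic ribosomal proteins had ETS in 39.7%, YY1 in 9.52% and NRF1 in 3.17% of promoters. Nuclear oxidative phosphorylation subunits had ETS in 23.9%, YY1 in 13.4%, NRF1 in 13.4% and ERR in 5.97%. Members that rose held the ETS letters in 15 of 43 promoters and those that fell in 4 of 12. Those that did not pass held them in 6 of 14. In the same order 5, 2 and 1 promoters held the NRF1 letters and 7, 1 and 4 the YY1 letters. The E-box was in 2, 2 and 1. A match describes these letters only.

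Among large subunit genes 32 of 49 rose (65.3%) and 9 fell (18.4%), against 39.0% and 38.1% of all features. Mrpl2, a protein of the catalytic core, had a normalised log2 intensity in media of 11.07, 10.83, 11.12 and 11.04, and in AngII RNA of 11.58, 11.41, 11.74 and 11.64. Its ratios were 0.52, 0.58, 0.62 and 0.60, the mean was 0.58 (SE 0.034, limma adjusted p = 4.77e-13), and the RNAs did not overlap. Mrpl15 had log2 ratios of 0.54 and 0.61 with AngII in Cy5 and 0.53 and 0.35 in Cy3, with a mean of 0.51. Mrpl24, the counterpart of a bacterial protein that starts large subunit assembly, had 0.56 and 0.63, then 0.38 and 0.41, with a mean of 0.50. Mrpl21 followed at 0.44 (0.32 to 0.57 over the arrays) and Mrpl18, related to the bacterial protein that holds 5S RNA, at 0.40 (0.28 to 0.47). The other probes of Mrpl18 gave 0.36 and 0.23. Mrpl51, a protein without a bacterial counterpart, rose by 0.45, with 0.12 and 0.21 with AngII in Cy5 but 0.73 on both arrays with AngII in Cy3. With the replicate block Mrpl51 did not pass (limma adjusted p = 0.0763), while the other large subunit genes named here did (0.00617 to 0.0174).

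The large subunit genes that fell with 1 sign on all arrays fell by less than the leading ones rose. Mrpl10, part of the stalk base where translation factors dock, had -0.21 and -0.22 with AngII in Cy5 and -0.41 and -0.51 in Cy3, a mean of -0.34 (SE 0.034, limma adjusted p = 6.67e-09). Its log2 intensity was 10.39 to 10.56 in media and 9.98 to 10.34 in AngII RNA, without overlap. Mrpl37 fell by 0.27 (-0.44 to -0.05), Mrpl3 by 0.20 (-0.28 to -0.13), Mrpl16 by 0.16 (-0.21 to -0.11) and Mrpl38 by 0.13 (-0.19 to -0.03). With the replicate block these 4 genes did not pass (limma adjusted p = 0.0946, 0.0652, 0.105 and 0.18), while Mrpl10 did (0.0384). A dimmer Mrpl38 probe had -0.44, and 2 other Mrpl3 probes -0.11 and -0.18. The stalk genes lay on both sides of 0. Mrpl11, which lies beside Mrpl10 at its base, rose by 0.15 (0.08 to 0.22), and Mrpl12, the stalk protein that also binds the mitochondrial RNA polymerase, by 0.12 (-0.04 to 0.26). Neither passed with the replicate block (limma adjusted p = 0.137 and 0.32).

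Mrpl41, a protein specific to mitochondria, rose by 0.39 (0.12 to 0.62), above the upper quartile of large subunit genes (0.36). Mrpl44, which carries a fold like that of ribonuclease III, had 0.08 (limma adjusted p = 0.0441), with -0.03 and -0.02 where AngII was in Cy3. Mrpl58, a peptidyl-tRNA hydrolase that frees stalled ribosomes, had 0.03 (limma adjusted p = 0.476), with 0.14 and 0.18 with AngII in Cy5 and -0.10 and -0.12 in Cy3. With the replicate block Mrpl41 (limma adjusted p = 0.0605) and Mrpl44 (0.481) did not pass. By class, the 30 large subunit genes with a bacterial counterpart included 20 called higher (66.7%) and 6 called lower (20%). The 21 genes without a counterpart included 13 called higher (61.9%) and 4 called lower (19%). The all-feature shares were 39.0% higher and 38.1% lower. Median log2 ratios were 0.16 for the first class and 0.13 for the second. The class counts place 2 Mrps genes, Mrps30 and Mrps18a, in the large subunit, as described below. Both were counted as without a counterpart, although Mrps18a is a relative of a bacterial protein.

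Among small subunit genes 17 of 29 rose (58.6%) and 5 fell (17.2%), against 39.0% and 38.1% of all features. Mrps15 had a normalised log2 intensity in media of 10.86, 10.90, 11.04 and 10.98 and in AngII RNA of 11.36, 11.40, 11.73 and 11.58. It rose by 0.57 (SE 0.034, limma adjusted p = 6.25e-13), with ratios of 0.50, 0.51, 0.69 and 0.60 and no overlap. Mrps35, specific to mitochondria, had 0.65 and 0.50 with AngII in Cy5 and 0.42 and 0.44 in Cy3, a mean of 0.50. Mrps11 rose by 0.42 (0.32 to 0.52), Mrps17 by 0.37 (0.05 to 0.65) and Mrps12, which sits at the decoding site, by 0.36 (0.23 to 0.44). The other Mrps17 probe had 0.16. Mrps16 rose by 0.28 (0.23 to 0.34) and Mrps22 by 0.27 (0.10 to 0.48), both genes in which mutations cause inherited defects of the respiratory chain. Mrps5, related to the bacterial protein that guards decoding accuracy, fell by 0.22 (-0.27 to -0.12), with -0.32 and -0.16 at its other probes. With the replicate block Mrps17, Mrps22 and Mrps5 did not pass (limma adjusted p = 0.102, 0.0847 and 0.0607), while Mrps15, Mrps35, Mrps11, Mrps12 and Mrps16 did (0.0075 to 0.0316). Beside Mrps6 and Mrps5, only Mrps30 passed as lower with 1 sign on all 4 arrays. Mrps27 was also negative on all 4 arrays but did not pass (limma adjusted p = 0.0579).

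Some symbols do not give the place of the protein. Mrps30 and Mrps18a lie in the large subunit of the mammalian ribosome, and Mrps36 belongs to the oxoglutarate dehydrogenase complex instead. Mrps18a rose by 0.48 (0.42 to 0.54, limma adjusted p = 1.46e-11) and Mrps30 fell by 0.13 (-0.24 to -0.0039). Of the other two relatives of bacterial S18, Mrps18c rose by 0.31, with 0.62 and 0.78 with AngII in Cy5 and -0.16 and -0.01 in Cy3, and Mrps18b fell by 0.09 (-0.27 to 0.03, limma adjusted p = 0.0248). Mrps36 rose by 0.32 (0.16 to 0.56). With the replicate block Mrps18a passed (limma adjusted p = 0.00974), and Mrps30, Mrps18c, Mrps18b and Mrps36 did not (0.205, 0.279, 0.453 and 0.0591). With these genes placed by location, 33 of 51 large (64.7%) and 15 of 26 small subunit genes (57.7%) rose. In the same order, 10 (19.6%) and 4 (15.4%) fell. Over all features 39.0% rose and 38.1% fell.

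**Figure D2:**
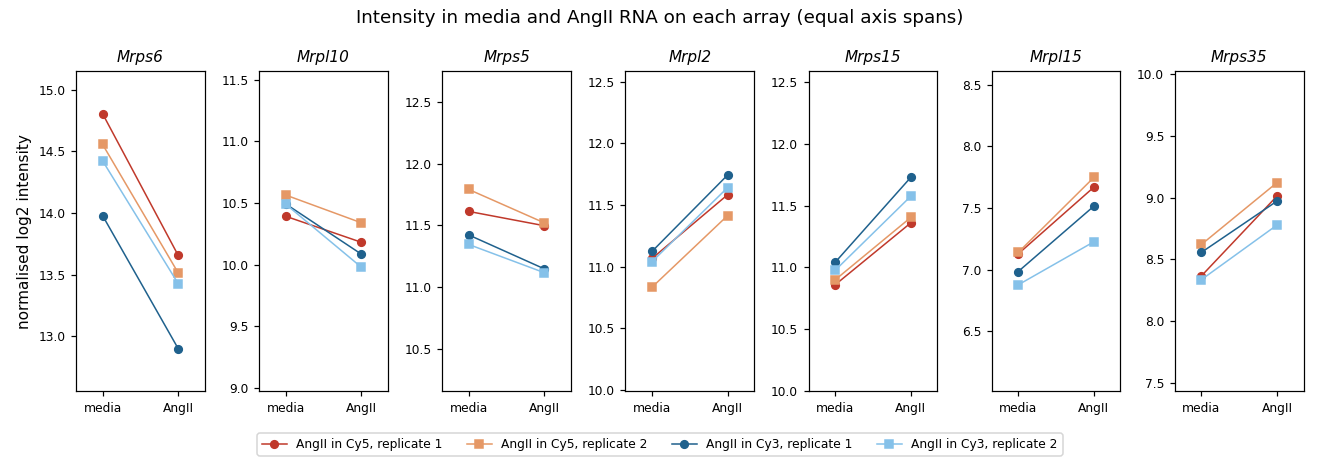
Normalised log2 intensity (y axis, equal spans) in media and AngII RNA for 7 members, each line 1 array. All 4 lines fall for Mrps6, Mrpl10 and Mrps5 and rise for Mrpl2, Mrps15, Mrpl15 and Mrps35.

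No order of large and small subunit genes held over both dye orientations. The median log2 ratio was 0.15 for large and 0.22 for small subunit genes by symbol, and 0.15 and 0.18 by place. The large minus small difference was -0.07, and it turned with the dye orientation. The quartiles of single genes were -0.04 and 0.36 for large and 0.0071 and 0.31 for small subunit genes. With AngII in Cy5 the medians were 0.18 and 0.22 for large and 0.31 on both arrays for small subunit genes. With AngII in Cy3 they were 0.08 and 0.04 for large and 0.0083 and -0.0097 for small. The difference was -0.12 from the first pair of arrays and 0.10 from the second.

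The size of the shift differed between the dye orientations. Over all members the median was 0.23 and 0.25 on the arrays with AngII in Cy5, and 0.04 and 0.02 on those with AngII in Cy3. Over all features these medians were 0.03, 0.04, -0.02 and -0.03. With AngII in Cy5, 61 and 64 of 78 members were positive, against 54.4% and 55.2% of features. With AngII in Cy3, 42 were positive on each array (53.8%), against 47.7% and 47.0% of features. The arrays with AngII in Cy3 alone called 34 members higher and 24 lower (43.6% and 30.8%, against 35.6% and 40.0% of all features). Those with AngII in Cy5 alone called 53 higher and 8 lower (67.9% and 10.3%, against 38.1% and 30.2%). A dye effect cancels in the mean of a swap, but 23 members (29.5%, against 21.7% of all features) had 1 sign with AngII in Cy5 and the other in Cy3. Mrps24 had 0.42 and 0.43, then -0.40 and -0.41, and Mrpl42 had 0.87 and 0.77, then -0.11 and -0.07. Mrpl52 went the other way, with -0.06 and 0.07, then 0.72 and 0.82. These 3 genes were named after their values were seen.

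**Figure D3:**
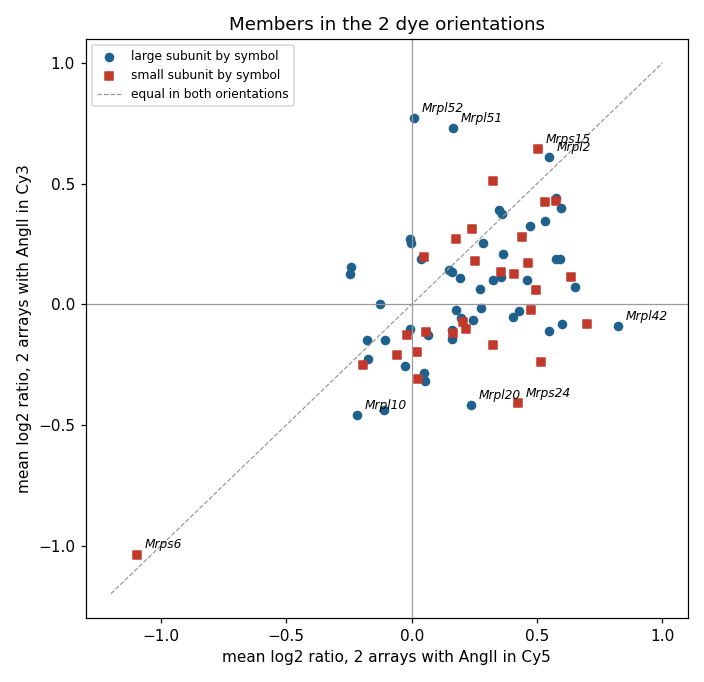
Mean log2 ratio of the 2 arrays with AngII in Cy5 (x axis) against that of the 2 arrays with AngII in Cy3 (y axis) for each member, large (circles) and small (squares) by symbol. In 60 of 78 genes (76.9%, against 58.1% of all features) the Cy5 mean is the higher. Mrps6, Mrpl2 and Mrps15 lie near the line of equal values.

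The intensities of the RNAs, read per array, gave a stricter count. The lowest AngII value lay above the highest media value for 21 members, against 17.9% of all features, and the reverse held for 3 members, Mrps6, Mrpl10 and Mrpl37, against 15.1% of features. Several probes were tested for 22 members, and in 19 of these no pair of probes had opposite signs. The median spread between probes of a gene was 0.13 and the widest 0.38. Mrpl45 had -0.06 at its brightest probe and 0.32 at the other, Mrps2 had 0.28 and -0.02, and Mrpl43 had -0.06 and 0.13. Mrpl49 had 0.18 at the brightest and 0.51 and 0.19 at the others, and Mrps26 -0.03 and -0.27. The authors' deposited table called 46 of the 78 members' probes higher, 12 lower and 20 not. The calls were the same for 73 of 78, and the log2 ratios correlated at r = 0.996 across members, which are not independent.

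The small subunit proteins Dap3, Chchd1, Aurkaip1 and Ptcd3 and the large subunit protein Gadd45gip1 carry other symbols, and these 5 of 5 rose. Over all features 39.0% rose and 38.1% fell. Chchd1 had 0.35, 0.25, 0.24 and 0.27 on the 4 arrays (mean 0.28), and Aurkaip1 0.29, 0.25, 0.23 and 0.28 (mean 0.26). Gadd45gip1 split by dye, with 0.30 and 0.31 with AngII in Cy5 and -0.13 and -0.15 in Cy3 (mean 0.08, limma adjusted p = 0.0271). Dap3, which binds GTP and was first known as a death-associated protein, rose by 0.23 (0.17 to 0.30). Factors that assemble the ribosome went both ways, with 12 of 27 higher (44.4%), 9 lower (33.3%) and a median of 0.06, shares near those of all features. Mpv17l2, an inner membrane protein needed for ribosome assembly, rose by 0.73 (0.50 to 1.03). Rpusd4, a pseudouridine synthase for mitochondrial RNA, fell by 0.53 (-0.77 to -0.38). Translation factors rose in 6 of 14 (42.9%) and fell in 3 (21.4%), against 39.0% and 38.1% of all features. Their median was 0.065. The release factor gene Mtrf1 rose by 0.39 (0.33 to 0.48) and the elongation factor gene Gfm1 fell by 0.37 (-0.40 to -0.29).

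Genes for copying and transcribing mitochondrial DNA rose in 7 of 15 (46.7%) and fell in 5 (33.3%), again near all features, with a median of 0.04. They were led by the mitochondrial topoisomerase gene Top1mt at 0.55 (0.39 to 0.72) and the single-strand binding protein gene Ssbp1 at 0.33 (0.08 to 0.63). Mitochondrial aminoacyl-tRNA synthetases and related enzymes rose in 6 of 19 (31.6%) and fell in 9 (47.4%), against 39.0% and 38.1% of all features. Their median was -0.06. Lars2 fell by 1.75, but its size differed by dye, with -0.91 and -0.95 with AngII in Cy5 and -2.75 and -2.38 in Cy3. Rars2 rose by 0.75 (0.72 to 0.82). Regulators of mitochondrial biogenesis rose in 3 of 10 (30%) and fell in 6 (60%), with a median of -0.19. The coactivator gene Ppargc1a had 1.06, 1.00, 0.88 and 0.92 (mean 0.96), and Tfe3 fell by 0.79 (-0.89 to -0.64). Among factors whose letters were searched above, Nrf1 fell by 0.66 (-0.91 to -0.40), Gabpa by 0.21 (-0.34 to -0.08) and the E-box factor gene Myc by 0.48 (-0.77 to -0.20), while Esrra rose by 0.21 (0.11 to 0.26) and Yy1 by 0.08 (-0.0009 to 0.18).

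Nuclear subunits of oxidative phosphorylation, which include the partners of the proteins made on this ribosome, had a profile like that of the members. Among 78 tested, 48 were higher (61.5%) and 17 lower (21.8%), against 39.0% and 38.1% of all features, and the median was 0.14. Their medians on the arrays were 0.23 and 0.20 with AngII in Cy5 and 0.07 and 0.03 in Cy3, again higher in the first orientation. Atp5k fell by 0.67, with -0.26 and -0.10 with AngII in Cy5 and -1.11 and -1.21 in Cy3. Ndufa8 rose by 0.66 (0.38 to 0.94). Cytosolic ribosomal proteins, by contrast, rose in 21 of 81 (25.9%) and fell in 41 (50.6%), with a median of -0.08. Rpl35a fell by 1.01 and Rpsa by 0.72. On the arrays their medians were 0.03 and 0.07 with AngII in Cy5 and -0.25 on both with AngII in Cy3. Members lay above cytosolic ribosomal proteins in the median on each of the 4 arrays. No test of the difference between lists was made.

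**Figure D4:**
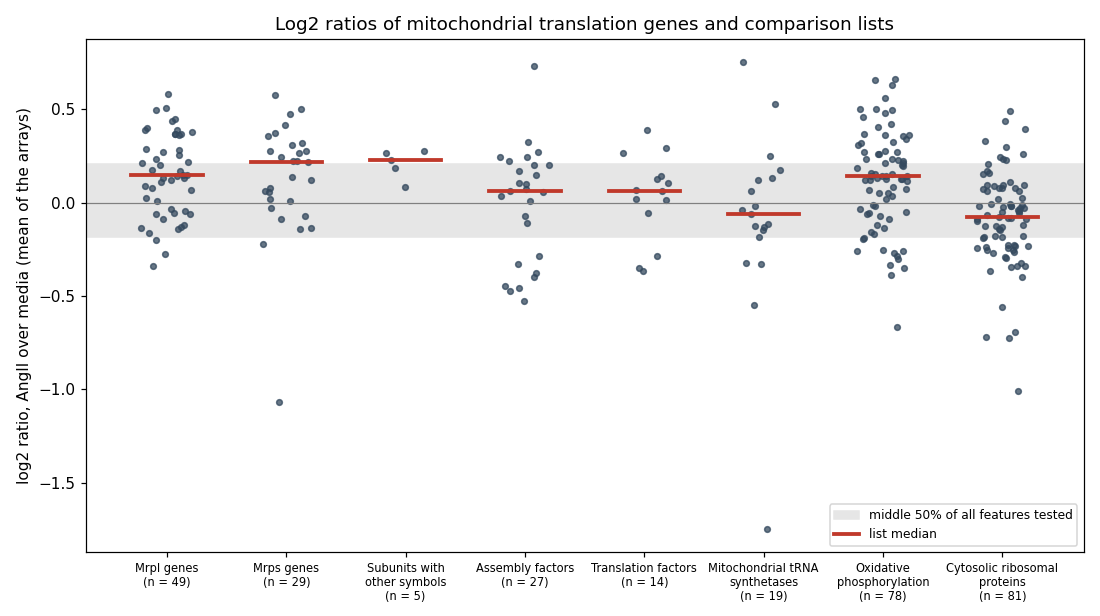
Mean log2 ratio over the arrays (y axis) of each tested gene (points) in the members by symbol and in 6 other lists (x axis, n below), with list medians (red) and the range between the quartiles of all 15003 features (grey). Members and oxidative phosphorylation genes have medians of 0.14 to 0.22, cytosolic ribosomal proteins -0.08.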

How the data were processed

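RNA of AngII-treated and media-treated ureteric buds was compared on 4 two-colour Agilent arrays, labelled from 300 ng of total RNA per the labels' protocols. Per the file headers, Feature Extraction (10.5.1.1) gave the deposited intensity of spots and local background as pixel medians, with flags of 0 or 1. The deposited files also hold processed intensities and their log10 ratio, red over green. For every spot the authors deposited a log2 ratio, its adjusted p-value, a log2 mean intensity and a call, a score of -1, 0 or 1. The submitters' processing notes name limma, with neither version nor settings.

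For this report limma 3.58.1 (R 4.3.3) was run with normexp background correction (offset 50), loess within arrays (weight 0 for control spots), removal of outlier-flagged spots, spots of a probe averaged, and arrays with AngII in Cy3 turned. Each number's dye swap was averaged, and both means were tested against 0 with lmFit and eBayes, two-sided, Benjamini-Hochberg adjusted over 15003 features. AngII and media RNA of a number share an array, so the pairing comes from the arrays. A probe was tested if well above background in 1 RNA on all 4 arrays, and the brightest probe stood for a gene. Intensities per RNA were further put on 1 scale with Aquantile. RefSeq (GRCm38.p6) named 25097 of 41174 probes by unversioned accession. Since the array was annotated on mm9, only RefSeq promoters carry coordinates.

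Members and lists were chosen with earlier results of these data known. Named members are up to 6 highest and 6 lowest of each subunit by symbol that passed with 1 sign on 4 arrays (only 5 large and 3 small subunit genes were lower), 15 fixed by name, and the 2 genes of each further list with the smallest adjusted p; Dap3, the factors of the searched motifs and genes whose probes or dye orientations disagreed were named besides. On simulated ratios for this comparison over 15003 features, 50 of 50 genes changed by 0.25 were recovered and 7 of 14803 unchanged features were called. Every simulated feature had the same noise, taken from the spread between hybridisations, and a dye effect that cancels in a swap. Most simulated features were unchanged, unlike in the data, where 77.1% passed. The simulation therefore gives no measure of recovery between animals or cultures. Alternatives tried were the background correction, signals, normalisation, filter, probe rule, dye orientation, dye term, replicate block, each replicate left out and subunits by place. The number of arrays limits the precision.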

Additional observations from a re-analysis of the deposited data

How the results depend on the processing

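Mrps6 kept its call in all settings run. The 49 members higher and 14 lower became 15 and 2 with the replicate block, and 5 to 8 and 1 without a replicate. In these settings the dye difference is left in the error and fewer of all features pass (4640, and 2214 to 2939). Without replicate 1, 10.3% of members were higher and 1.28% lower, against 10.1% and 9.45% of all features. Without replicate 2 the shares were 6.41% and 1.28%, against 7.74% and 7.02%. The share of higher members was near that of all features in both. With the dye as a term 50 rose and 14 fell (64.1% and 17.9%, against 38.6% and 37.4% of all features). Lower members were 8 (10.3%) with median centring, 8 (10.3%) on the Cy5 arrays (AngII in Cy5) and 24 (30.8%) on the Cy3 arrays. The shares of all features that were lower were 33.8%, 30.2% and 40% in the same order. The median of members was 0.18 with processed signals, 0.23 with median centring, 0.24 on the Cy5 arrays, 0.060 on the Cy3 arrays and 0.15 to 0.17 without a replicate. No setting moved the median of all features by over 0.1.

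The large minus small difference of -0.07 was -0.033 with processed signals, -0.016 with median centring, -0.12 on the Cy5 arrays, -0.030 with subunits by place and -0.073 to -0.039 without a replicate. It turned to 0.0075 with probes averaged per gene and 0.10 on the Cy3 arrays, where the small subunit median was -0.025; the cause was not tested. Of the 30 named members, Mrpl12 (-0.0044) and Mrps18b (0.0225) turned on the Cy5 arrays, and Mrpl44 (-0.0225), Mrpl58 (-0.11) and Mrps18c (-0.084) on the Cy3 arrays. Over 12 settings 284 of their 360 values kept direction and side of the threshold, 69 lost the call, 2 gained it and 5 turned.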
